A study of Mus musculus with 12 samples.

Results

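The enzymes that make serine from a glycolytic intermediate and pass its carbon to folate were followed in primary mouse chondrocytes, together with the first enzyme of proline synthesis from glutamate. The 10 genes were chosen by symbol: Phgdh, Psat1, Psph, Shmt1, Shmt2, Mthfd1, Mthfd1l, Mthfd2, Aldh1l2 and Aldh18a1. Each symbol matched 1 Ensembl ID among the 57010 in the count tables, and all 10 passed the expression filter that left 14253 genes for testing. The lowest count of any of them in any library was 123.

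Serine is built in the cytosol from 3-phosphoglycerate by a dehydrogenase, a transaminase and a phosphatase, encoded by Phgdh, Psat1 and Psph. Serine hydroxymethyltransferases, SHMT1 in the cytosol and SHMT2 in mitochondria, then split serine into glycine and a carbon unit carried on tetrahydrofolate. In mitochondria that unit is oxidised by MTHFD2 and released as formate by MTHFD1L, or oxidised to CO2 by ALDH1L2, and the cytosolic enzyme MTHFD1 reloads formate onto folate for purine and thymidylate synthesis. ALDH18A1 makes the precursor of proline. Proline and glycine are the main residues of collagen, the protein that chondrocytes secrete in bulk.

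Poly(A) RNA was counted in 12 libraries, 4 labelled Control, 4 labelled WT and 4 labelled SIRT5F101L mutant. All are labelled as primary chondrocytes of wild-type genotype. By the treatment text, cells received a wild-type plasmid or one for the SIRT5F101L mutant. SIRT5 is a lysine deacylase, found mainly in mitochondria, that takes off malonyl, succinyl and glutaryl groups. What control cells received, the strain and the age of the mice, and whether libraries of a group came from separate cultures are not given in the sources used here. If they did not, the p-values measure technical spread only.

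Libraries held 15095357 to 24242139 counts. The first principal component of log2 CPM (counts scaled to a common library total) held 72.7% of the variance and put Control libraries apart from both plasmid groups. On the second, SIRT5F101L replicate 1 lay at 20.3, beyond the WT libraries at -1.07 to 20.05, while the other 3 SIRT5F101L libraries lay at -23.5 to -17.0. Its counts differed from those of WT replicate 4 by 2.61 times the sampling noise, and from the other SIRT5F101L libraries by 8.19 to 8.92 times. Results are therefore also given without that library where it alters them. Sirt5 itself had 9 to 16 counts in Control, 1 to 9 in WT and 9 to 19 in SIRT5F101L libraries. edgeR called Sirt5 in none of the 3 comparisons, so a rise of Sirt5 counts does not mark either plasmid label. Directions below are those of the libraries so labelled. Markers of the named cell type were present: 8 chondrocyte genes, Col2a1, Acan and Sox9 among them, summed to 9035 to 11337 CPM in Control libraries.

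Stretches of the promoters are shown for the members Mthfd2, Psph and Aldh18a1, each at least 2-fold lower in both plasmid groups. They are also shown for 2 other genes, Asns (asparagine synthetase) and Pycr1 (proline synthesis). All were read from RefSeq on build GRCm38.p6, given 5′ to 3′ on the gene's strand and lie upstream of the start site. The counts were made on another build, GRCm39 per the submitters' processing notes, so these positions belong to the promoter table only. In Mthfd2 and Psph the capitals mark CCAAT or its reverse complement ATTGG, a motif searched after the sequences had been seen. In Aldh18a1 they mark CACGTG, and in Asns and Pycr1 TGATGNAA, the element bound by ATF4 with a C/EBP partner.
Mthfd2, chr6:83317605-83317704, minus strand: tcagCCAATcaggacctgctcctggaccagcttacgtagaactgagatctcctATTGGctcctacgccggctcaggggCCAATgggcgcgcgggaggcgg
Psph, chr5:129787254-129787353, minus strand: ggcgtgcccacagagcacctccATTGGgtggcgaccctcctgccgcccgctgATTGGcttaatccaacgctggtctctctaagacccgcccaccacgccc
Aldh18a1, chr19:40588479-40588558, minus strand: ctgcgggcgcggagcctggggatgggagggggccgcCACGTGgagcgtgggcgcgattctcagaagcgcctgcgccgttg
Asns, chr6:7693210-7693289, minus strand: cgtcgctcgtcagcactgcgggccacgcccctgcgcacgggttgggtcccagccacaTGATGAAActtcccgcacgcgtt
Pycr1, chr11:120643808-120643887, minus strand: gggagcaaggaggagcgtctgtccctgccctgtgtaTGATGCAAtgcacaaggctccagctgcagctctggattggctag

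Against Control, the members did not move as a block. Transcripts of Aldh1l2, Mthfd2, Psph and Aldh18a1 were at least 2-fold lower in both plasmid groups, that of Mthfd1l was about 2-fold higher, Mthfd1 rose and Shmt2 fell by less, and Phgdh stayed within its spread. Genes were tested with the quasi-likelihood model of edgeR, and those with an adjusted p (Benjamini-Hochberg, over all 14253 genes) under 0.05 were called. In WT libraries 7 of the 10 members were called, 2 higher and 5 lower. In WT libraries 56.8% of all tested genes differed (28.7% higher, 28.1% lower), so the count of members is near that of any gene. In SIRT5F101L libraries 8 differed, 2 higher and 6 lower, beside 60.7% of all genes (30.0% higher, 30.7% lower). A fall of at least 2-fold was called for 4 members in each comparison, beside 7.56% and 7.67% of all genes. A rise of that size was called for 0 members in WT and 1 in SIRT5F101L, beside 9.1% and 9.84%. Control and plasmid libraries did not overlap for 6 members in WT and 7 in SIRT5F101L, beside 53.5% and 51.3% of all genes. The median log2 fold change of the members was -0.25 and -0.30, and that of all genes -0.013 and -0.017. Both comparisons use the same 4 Control libraries.

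**Figure D1:**
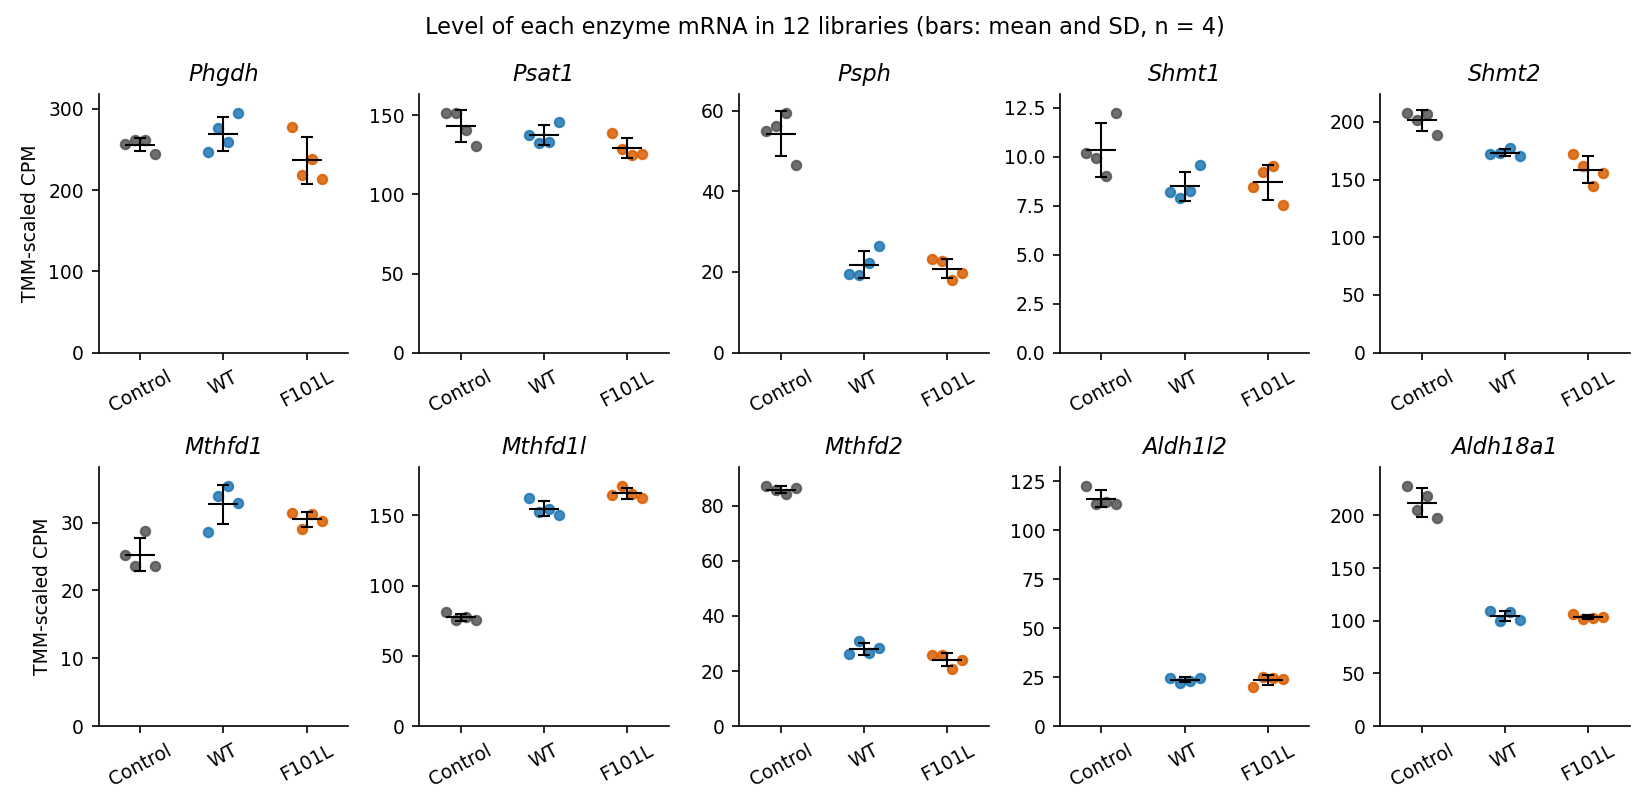
TMM-scaled CPM of each enzyme's mRNA (y axes start at 0) in the 4 libraries of each group, with points for libraries and bars for mean and SD. Control points lie apart from both plasmid groups for Psph, Shmt2, Mthfd1l, Mthfd2, Aldh1l2 and Aldh18a1, and overlap them for Phgdh, Psat1, Shmt1 and, in WT, Mthfd1.

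The serine-making steps were taken first. Phgdh, the entry enzyme, was at 256, 262, 262 and 245 CPM in Control replicates 1 to 4 (scaled by edgeR's TMM factors, as are all levels). It was at 247, 276, 259 and 295 CPM in WT and at 277, 218, 238 and 214 CPM in SIRT5F101L libraries. The 3 groups overlapped, and the highest SIRT5F101L value was that of replicate 1. Its log2 fold change was 0.073 in WT (95% interval -0.085 to 0.23, edgeR adjusted p 0.430) and -0.11 in SIRT5F101L (-0.27 to 0.045, adjusted p 0.206). Without SIRT5F101L replicate 1 the latter was -0.20 and was called (edgeR adjusted p 0.00652), in a fit that called 63.2% of all genes in that comparison and 60.2% in WT against Control. With the trend on exon length as an offset, Phgdh was called in WT (0.16, edgeR adjusted p 0.0317). In the GENCODE M21 transcripts, other genes held near-identical copies (95% identity or more) of 89.5% of the Phgdh transcript. The 8 longest copies together held 1.28% to 2.13% as many counts as Phgdh, so few reads were counted for them. How many reads that match both were dropped is not known, so the level of Phgdh is uncertain.

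Psat1, the transaminase of the second step, was at 152, 151, 140 and 131 CPM in Control, 138, 132, 133 and 146 in WT and 139, 129, 125 and 126 in SIRT5F101L libraries. The groups overlapped here too. The log2 fold change was -0.064 in WT (95% interval -0.19 to 0.067, edgeR adjusted p 0.402). In SIRT5F101L libraries it was -0.15 (SE 0.062) and just passed, with an edgeR adjusted p of 0.0464. That call was lost in 14 of 20 alternative fits, those with DESeq2 and with RLE scaling among them.

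Psph, the phosphatase that releases serine, moved most in this branch. It was at 54.8, 56.3, 59.5 and 46.6 CPM in Control, 19.5, 19.2, 22.2 and 26.3 in WT, and 23.2, 22.6, 17.97 and 19.7 in SIRT5F101L libraries. Every Control library lay above every plasmid library, and the plasmid groups overlapped each other. Psph fell 2.48-fold in WT (log2 fold change -1.31, SE 0.11, edgeR adjusted p 1.95e-09) and 2.61-fold in SIRT5F101L (-1.38, SE 0.11, adjusted p 8.31e-10). In bulk RNA, fewer cells of a type and less RNA per cell cannot be told apart. Psph shares 10.4% of its exon bases with Cct6a on the opposite strand, and the strand setting of the counting is not given in the sources used here. Cct6a rose in the same libraries (log2 fold change 0.36 and 0.35), the opposite direction to Psph.

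The next pair splits serine. Shmt2, the mitochondrial enzyme, was at 208, 202, 207 and 189 CPM in Control, 172, 173, 177 and 171 in WT, and 172, 162, 144 and 156 in SIRT5F101L libraries. All Control values were above all others, by a small margin. Shmt2 fell 1.16-fold in WT (log2 fold change -0.22, SE 0.060, edgeR adjusted p 0.00426) and 1.27-fold in SIRT5F101L (-0.34, SE 0.060, adjusted p 5.13e-05). Shmt2 shares 1.03% of its exon bases with Ndufa4l2 on the opposite strand, which was at a mean of 543 CPM in Control and fell further (-0.97 and -0.99).

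Shmt1, its cytosolic counterpart, had the lowest level of the 10. It was at 10.2, 9.94, 9.001 and 12.2 CPM in Control, 8.19, 7.89, 8.26 and 9.57 in WT, and 8.45, 9.23, 9.51 and 7.54 in SIRT5F101L libraries, and the groups overlapped. The log2 fold change was -0.28 in WT (95% interval -0.54 to -0.029, edgeR adjusted p 0.0534) and -0.25 in SIRT5F101L (-0.50 to 0.0037, adjusted p 0.0822). Upper-quartile scaling gave -0.33 and -0.29, both called (edgeR adjusted p 0.0254 and 0.0428). In WT it was also called without Control replicate 3, WT replicate 4 or SIRT5F101L replicate 1, so in 4 of 20 alternatives, and in SIRT5F101L without Control replicate 3, so in 2 of 20. Shmt1 shares 4.74% of its exon bases with Smcr8 on the other strand, which rose (0.61 and 0.70).

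The folate enzymes after that step went in different directions. Mthfd2, the mitochondrial dehydrogenase and cyclohydrolase, was at 87.1, 85.7, 84.2 and 86.4 CPM in Control, the tightest of the 10 members there. It was at 26.2, 30.9, 26.6 and 28.3 CPM in WT and at 25.7, 26.0, 20.7 and 24.1 in SIRT5F101L libraries. Control lay far above both plasmid groups. Mthfd2 fell 3.07-fold in WT (log2 fold change -1.62, SE 0.077, edgeR adjusted p 3.81e-13) and 3.57-fold in SIRT5F101L (-1.84, SE 0.078, adjusted p 5.46e-14).

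Aldh1l2, which oxidises 10-formyltetrahydrofolate to CO2 in mitochondria with production of NADPH, changed most. It was at 123, 114, 114 and 114 CPM in Control, 24.7, 21.9, 23.2 and 24.7 in WT, and 20.0, 25.2, 24.7 and 24.3 in SIRT5F101L libraries. The plasmid groups covered the same range, far below Control. Aldh1l2 fell 4.90-fold in WT (log2 fold change -2.29, SE 0.076, edgeR adjusted p 1.11e-15) and 4.92-fold in SIRT5F101L (-2.30, SE 0.076, adjusted p 9.43e-16). It shares 14.1% of its exon bases with D10Wsu102e on the opposite strand, which fell less (-0.45 and -0.49), and D10Wsu102e had 29.6 to 48.5 CPM, or 39.3% to 169% of the level of Aldh1l2 in the same library. How many reads of the shared bases were counted for either gene is not known, so the count of Aldh1l2 is uncertain.

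Mthfd1l, the mitochondrial formate-releasing ligase, was the member that rose most. It was at 80.9, 75.2, 77.7 and 75.8 CPM in Control, 162, 152, 154 and 150 in WT, and 164, 171, 165 and 162 in SIRT5F101L libraries. Each plasmid library was near a doubled Control level. The rise was 2.0-fold in WT (log2 fold change 1.0, SE 0.054, edgeR adjusted p 2.86e-12) and 2.14-fold in SIRT5F101L (1.10, SE 0.054, adjusted p 5.95e-13). Mthfd2 and Mthfd1l, which act in the same mitochondrial route, thus moved in opposite directions in the same libraries.

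Mthfd1, the cytosolic trifunctional enzyme, was at 25.2, 23.6, 28.7 and 23.7 CPM in Control, 28.6, 33.9, 35.4 and 32.9 in WT, and 31.4, 29.0, 31.2 and 30.2 in SIRT5F101L libraries. Control replicate 3 was its highest Control value and overlapped WT replicate 1. Mthfd1 rose 1.29-fold in WT (log2 fold change 0.37, SE 0.084, edgeR adjusted p 0.000929) and 1.21-fold in SIRT5F101L (0.27, SE 0.084, adjusted p 0.00958).

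Aldh18a1, the glutamate 5-kinase and reductase that opens proline synthesis, was at 228, 205, 218 and 197 CPM in Control. It was at 109, 100.1, 109 and 100.8 CPM in WT and 106, 101.9, 103 and 104 in SIRT5F101L libraries. No plasmid library came near the lowest Control value. The fall was 2.03-fold in WT (log2 fold change -1.02, SE 0.059, edgeR adjusted p 8.82e-12) and 2.04-fold in SIRT5F101L (-1.03, SE 0.059, adjusted p 6.93e-12). Its promoter stretch above holds the only CACGTG among the member windows.

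**Figure D2:**
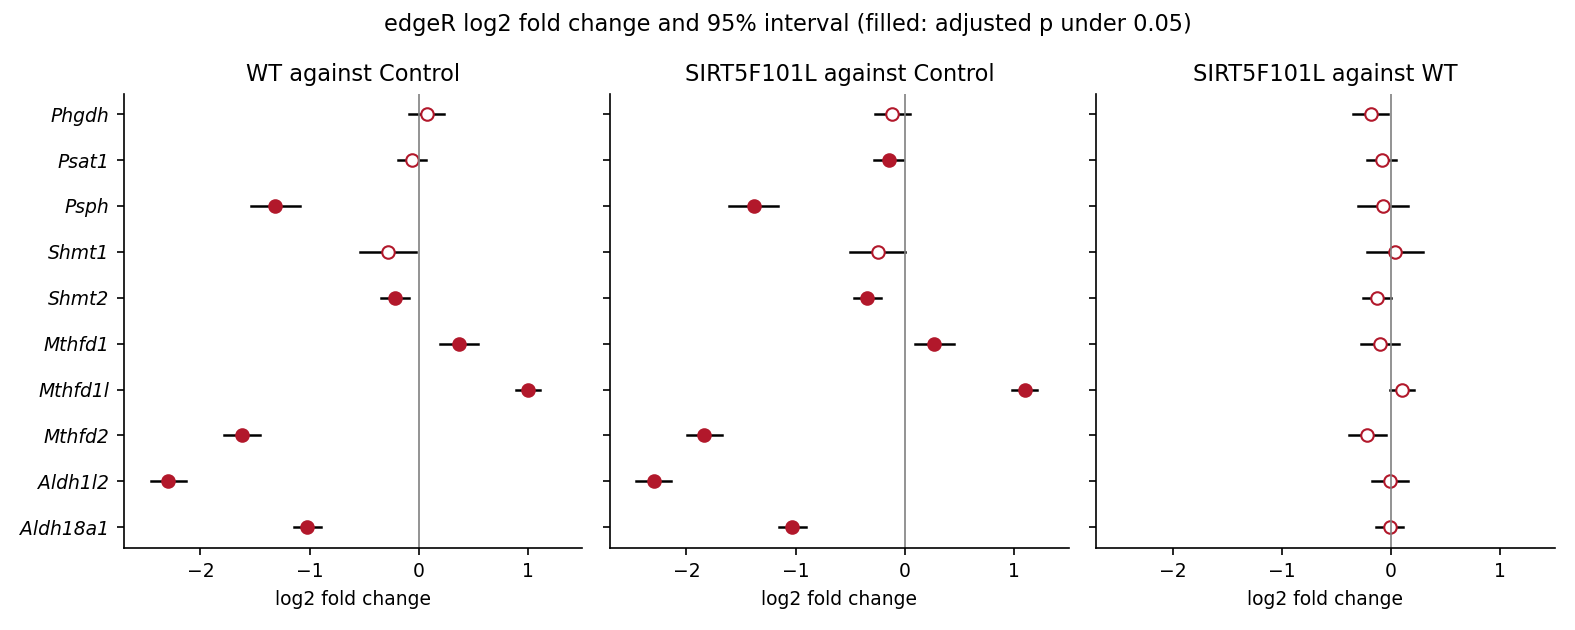
edgeR log2 fold change (x axis) of each member (y axis) in the 3 comparisons, with 95% intervals as lines and filled points for an adjusted p under 0.05. Aldh1l2 at -2.29 and -2.30 and Mthfd1l at 1.0 and 1.10 mark the extremes against Control, and all 10 points are open between the plasmid groups.

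To set the members against one another, levels were divided by the union of exon lengths in GENCODE M21, whose gene models may differ from those the authors counted on. In Control libraries Phgdh had the highest level, at 103 ± 3.28 CPM per kb (SD, n = 4), followed by Shmt2 at 64.7 ± 2.83 and Aldh18a1 at 52.1 ± 3.34. Psat1 (33.7 ± 2.37), Mthfd2 (24.6 ± 0.353), Mthfd1l (17.4 ± 0.577) and Aldh1l2 (15.5 ± 0.578) came next. Psph (12.5 ± 1.27), Mthfd1 (5.69 ± 0.538) and Shmt1 (2.66 ± 0.351) were lowest. No neighbours in that order overlapped in their ranges over 4 libraries. In the plasmid groups Mthfd1l took the third place, at 34.9 ± 1.23 CPM per kb in WT and 37.3 ± 0.827 in SIRT5F101L. Aldh1l2 was then ninth, at 3.15 ± 0.180 and 3.14 ± 0.317. Mthfd2 (8.02 ± 0.609 in WT, 6.92 ± 0.689 in SIRT5F101L) was no longer apart from Mthfd1 (7.36 ± 0.651 and 6.86 ± 0.255), and in WT the ranges of Mthfd1l and Psat1 overlapped.

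**Figure D3:**
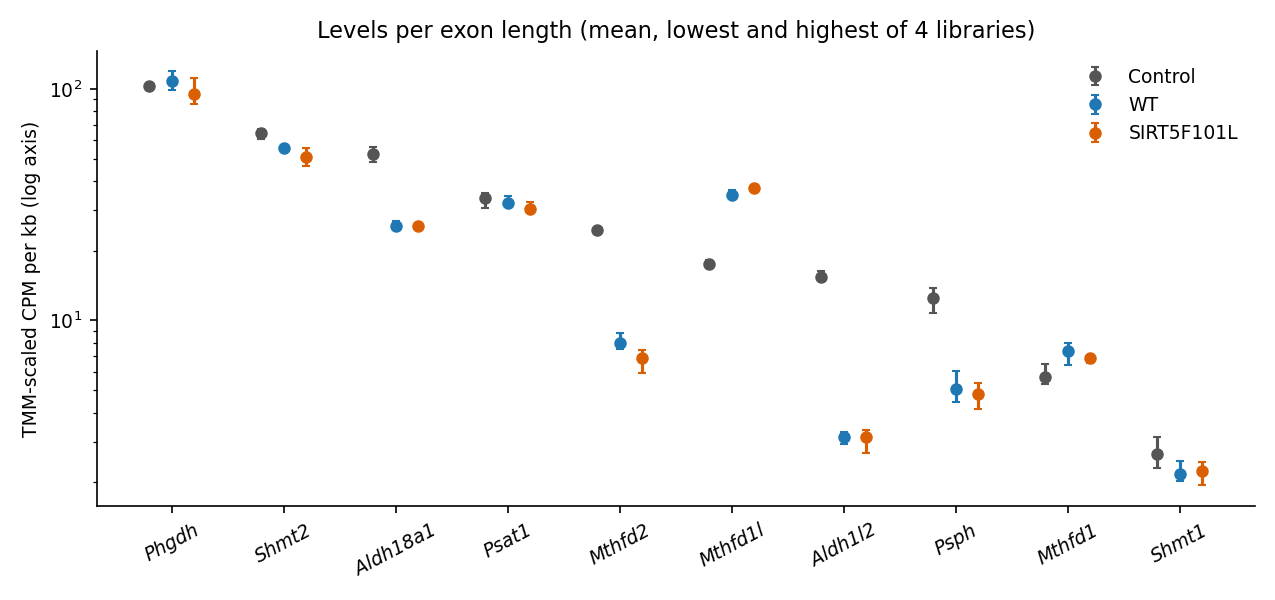
TMM-scaled CPM per kb of exon (log axis) for the 10 members, ordered by their Control mean, with the mean as a point and the lowest and highest of 4 libraries as bars. Phgdh and Shmt2 led in all 3 groups, while Mthfd2 lay above Mthfd1l in Control and below it in the plasmid groups.

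Ratios of counts within a library, which do not depend on scaling, were compared for 3 pairs of enzymes from mitochondria and cytosol. Mthfd2 had 3.46, 3.63, 2.93 and 3.65 counts for each count of Mthfd1 in Control libraries. It had 0.914, 0.911, 0.753 and 0.859 in WT and 0.816, 0.897, 0.664 and 0.801 in SIRT5F101L libraries. The ratio was 3.97-fold lower in WT and 4.31-fold lower in SIRT5F101L, with no overlap. The counts of Mthfd1l for each of Mthfd1 were 3.21, 3.18, 2.70 and 3.20 in Control, 5.67, 4.49, 4.36 and 4.55 in WT, and 5.22, 5.88, 5.29 and 5.37 in SIRT5F101L libraries. That ratio was 1.55-fold and 1.77-fold higher, also with no overlap. Each of these 4 differences had an exact 2-sided permutation p of 0.0286, the smallest that 70 arrangements of 8 libraries can give. Adjusted over the 9 ratio tests they had 0.0643 and did not pass.

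The ratio of Shmt2 to Shmt1 counts was 20.4, 20.2, 22.9 and 15.4 in Control, 21.0, 21.8, 21.4 and 17.8 in WT, and 20.3, 17.5, 15.1 and 20.6 in SIRT5F101L libraries. The groups overlapped, and the exact permutation p was 0.686 for WT and 0.600 for SIRT5F101L against Control (0.686 and 0.675 adjusted). Between the plasmid groups the 3 ratios had exact permutation p-values of 0.114 to 0.343 (0.206 to 0.441 adjusted).

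**Figure D4:**
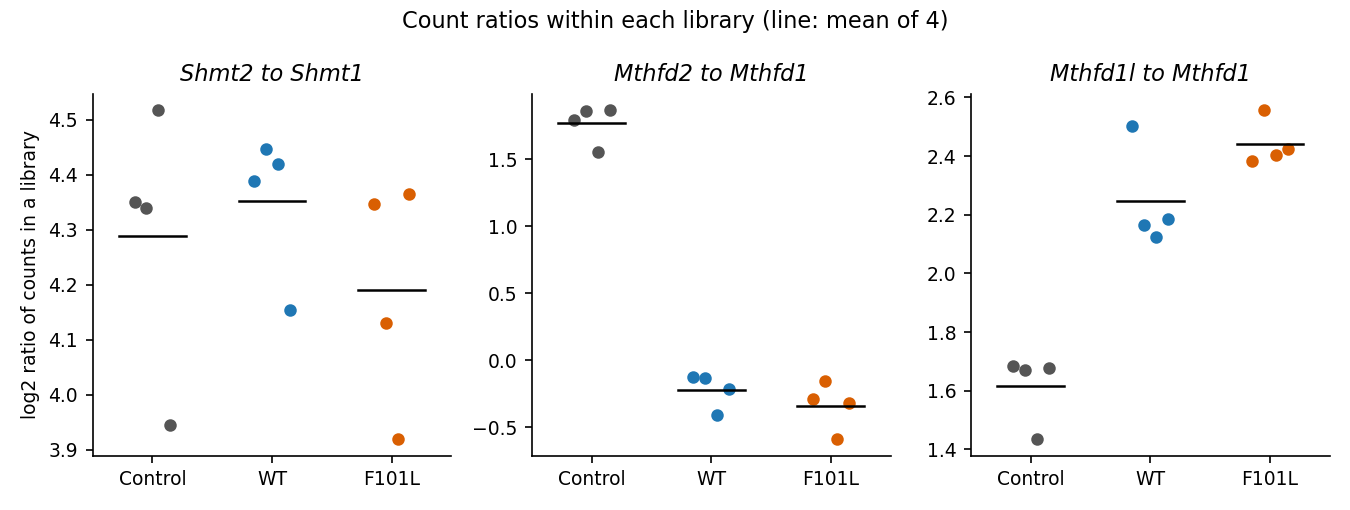
log2 ratio of counts within each library (y axis) for 3 pairs of enzymes, with 4 points per group and the mean as a line. The Mthfd2 to Mthfd1 ratio lies between 2.93 and 3.65 (linear) in Control and under 1 in all 8 plasmid libraries, while the Shmt2 to Shmt1 ratio overlaps among groups.

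Between the plasmid groups, which the labels set apart as WT and SIRT5F101L mutant, edgeR called 0 of the 10 members, beside 0.0421% of all genes (0.0281% higher, 0.014% lower). DESeq2 also called 0, and 3 members (Phgdh, Shmt2 and Mthfd2) had an unadjusted p under 0.05 in edgeR. The log2 fold changes of SIRT5F101L against WT ran from -0.22 for Mthfd2 (95% interval -0.38 to -0.050, edgeR adjusted p 0.363) to 0.098 for Mthfd1l (-0.013 to 0.21, adjusted p 0.456). The interval was -0.17 to 0.16 for Aldh1l2 and -0.14 to 0.11 for Aldh18a1, and the widest, for Psph and Shmt1, ran from -0.30 to 0.16 and from -0.22 to 0.29. Mthfd2 was the only member without overlap between these groups, beside 4.02% of all genes. Without SIRT5F101L replicate 1, edgeR called 3 members lower in SIRT5F101L: Phgdh (-0.27, adjusted p 0.00327), Mthfd2 (-0.25, adjusted p 0.0345) and Shmt2 (-0.17, adjusted p 0.0413). In that fit 15.2% of all genes were called, against 0.0421% with the library. The calls between the plasmids therefore depend on whether that library is kept. It was singled out for lying near the WT libraries, so its removal favours a difference. The 3 calls made without it are no independent evidence of one.

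ATF4 is a transcription factor made under amino acid shortage and other stress. It is known to drive members that include Phgdh, Psat1, Psph, Shmt2, Mthfd2, Aldh1l2 and Aldh18a1. Among these, Phgdh was called in neither comparison with Control, and Psat1 only in SIRT5F101L. The part of ATF4 in the members' changes was not tested. Most of the targets listed outside the members were lower in both plasmid groups. Atf4 mRNA was at 348 to 391 CPM in Control, 146 to 165 in WT and 133 to 167 in SIRT5F101L libraries, with no overlap with Control. It fell 2.39-fold in WT and 2.59-fold in SIRT5F101L (edgeR log2 fold change -1.25 and -1.37, adjusted p 7.83e-12 and 1.84e-12). Of 22 listed genes (Atf4 and 21 targets outside the members), 21 were matched and tested. In WT 16 fell and 3 rose, with a median log2 fold change of -0.71, and in SIRT5F101L 17 fell and 2 rose, with -0.75. Of all genes 28.1% fell and 28.7% rose in WT, and 30.7% fell and 30.0% rose in SIRT5F101L. Asns, asparagine synthetase, fell 2.60-fold and 2.65-fold, and Ddit3, a stress transcription factor, 2.37-fold in both. Trib3, a pseudokinase that feeds back on ATF4, fell 5.001-fold and 4.95-fold, and Atf5 4.66-fold and 5.33-fold. Between the plasmid groups edgeR and DESeq2 called 0 of the 21 (3 at an unadjusted p under 0.05 in edgeR), and edgeR 7 without SIRT5F101L replicate 1 (1 higher, 6 lower).

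The TGATGNAA element was searched on both strands in windows from 250 bases before to 50 after each RefSeq start site. It was in 3.97% of 32851 windows and in 8 of the 21 windows that cover 19 genes of the ATF4 list. None of the 10 windows of 9 members (all but Aldh1l2) held it, which says only that these letters are not in those windows. CCAAT was in 6 of the 10 member windows, beside 37.4% of all, with 3 matches each in those of Mthfd2 and Psat1, 2 each in those of Psph and Phgdh, and 1 each in those of Mthfd1 and Shmt1. Members that fell, rose and were not called are thus among them. CACGTG was in 1 member window, beside 7.15% of all. TGACGTCA, TGAGTCA, TGACGTAA, TTTCGCGC and TTTGGCGC, found in 0.323% to 5.2% of all windows, were in 0 of the 10.

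Proline synthesis and amino acid import were examined beside Aldh18a1. Pycr1, the mitochondrial reductase that completes proline, fell more than any member. It was at 61.2 to 72.2 CPM in Control, 10.2 to 12.6 in WT and 5.50 to 10.1 in SIRT5F101L libraries, a fall of 6.03-fold and 7.57-fold (edgeR log2 fold change -2.59 and -2.92, adjusted p 6.06e-13 and 1.19e-13). Of 10 listed proline genes 7 were tested, and 1 rose and 2 fell in WT, 1 rose and 3 fell in SIRT5F101L. Oat and Aldh4a1 were listed at 0 in all 12 libraries. Whether a 0 of this kind, here and below, reflects no RNA or an ID that was not counted was not tested. Of 10 tested amino acid transport genes 3 rose and 5 fell in each comparison. For both lists the shares of all genes are those given for the ATF4 list (28.7% and 30.0% higher, 28.1% and 30.7% lower), so counts of this size in lists this short are no result about them. Slc7a5 and Slc3a2, the chains of the large neutral amino acid carrier, fell 3.995-fold and 1.80-fold in WT and 4.34-fold and 2.09-fold in SIRT5F101L.

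The rest of the folate cycle was mixed. Of 16 tested folate genes 3 rose and 6 fell in WT, 4 rose and 3 fell in SIRT5F101L, beside 28.7% higher and 28.1% lower of all genes in WT and 30.0% and 30.7% in SIRT5F101L. Mthfd2l, the paralogue of Mthfd2, rose from 12.01 to 18.5 CPM in WT and 19.3 in SIRT5F101L (edgeR log2 fold change 0.62 and 0.69). Tyms, thymidylate synthase, rose (0.80 and 0.72). Slc25a32, the mitochondrial folate carrier, did not pass (-0.081 and 0.024).

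Genes that use these carbon units went in both directions, beside 28.7% of all genes higher and 28.1% lower in WT, and 30.0% and 30.7% in SIRT5F101L. Of 11 tested purine synthesis genes 6 rose and 2 fell in each comparison, with Ppat, the committing enzyme, at 0.90 and 0.81 and Adssl1 at 1.21 in both. Prps1, Prps1l3 and Prps2 were listed at 0 in all libraries. Of 9 tested methionine cycle and transsulfuration genes 5 rose and 3 fell in each. Nnmt, which consumes S-adenosylmethionine, rose (1.499 and 1.43), and Cth, which makes cysteine and is itself an ATF4 target, fell (-1.20 and -1.44). Of 11 tested genes of glycine cleavage and serine use 4 rose and 2 fell in WT, 4 rose and 4 fell in SIRT5F101L. The latter count of 8 was 5 without Control replicate 2 and also without Control replicate 4. Sptlc2, a subunit of the enzyme that joins serine to palmitoyl-CoA, rose (0.77 and 0.78), and Sdsl, a serine dehydratase-like gene, fell (-0.91 and -1.40). All 14 tested proliferation genes rose in both comparisons, with medians of 0.97 and 0.90, and Tk1 was listed at 0 in all libraries. Mki67, a marker of cycling cells, was at 1.31 in both and Bub1, a spindle checkpoint kinase, at 1.65 and 1.63.

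**Figure D5:**
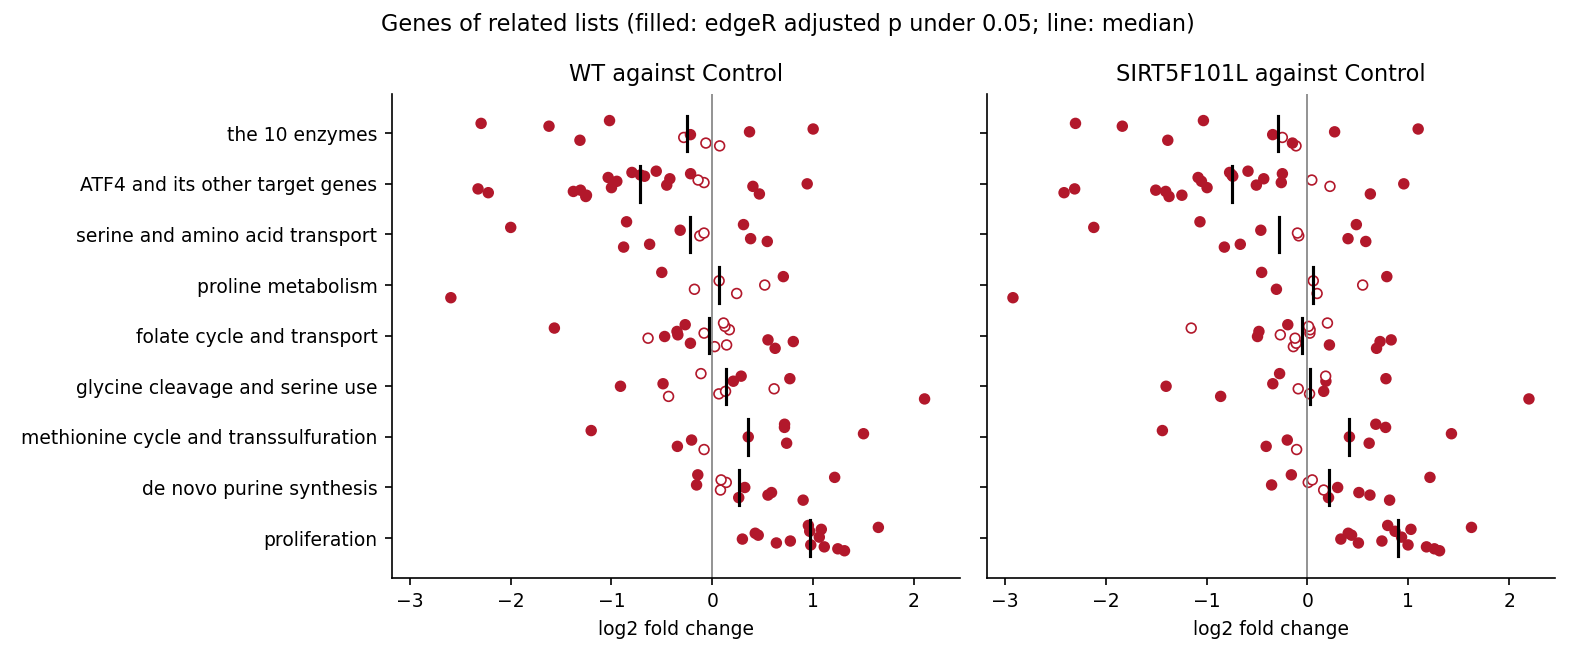
log2 fold change against Control (x axis) of each tested gene in the 10 enzymes and 8 related lists (rows), for WT and SIRT5F101L libraries, with filled points for an edgeR adjusted p under 0.05 and the median as a line. The ATF4 list lies mostly to the left, with medians of -0.71 and -0.75, and the proliferation list to the right, with 0.97 and 0.90.

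Marker levels moved with the same groups. The counts below stand beside 28.1% of all genes lower and 28.7% higher in WT, and 30.7% and 30.0% in SIRT5F101L. The 8 chondrocyte markers summed to 9035 to 11337 CPM in Control, 2812 to 2927 in WT and 2293 to 2537 in SIRT5F101L libraries, with 6 of 8 lower in each and none at 0. In WT the other 2, Acan and Hapln1, were higher, and in SIRT5F101L Hapln1 was higher and Acan was not called. The 6 fibroblast or dedifferentiation markers summed to 30070 to 35975, 10913 to 12151 and 10755 to 11907 CPM, most of it from collagen I and III chains. Of these markers 4, the collagen chains and Thy1, were lower, and 2, Pdgfra and Dcn, were higher. Pdgfra went from a mean of 200 CPM in Control to 263 in WT and 307 in SIRT5F101L. Dcn went from 414 to 1125 and 1304. The 8 macrophage and leukocyte markers summed to 169 to 204, 130 to 149 and 139 to 178 CPM, with 6 of 7 tested lower, Cd14 higher and Itgam listed at 0. Osteoblast markers summed to 18.01 to 24.8, 4.11 to 4.79 and 3.51 to 5.21 CPM, with 2 of 3 tested lower. Muscle markers summed to 7.43 to 8.87, 2.25 to 4.27 and 1.76 to 3.64 CPM, with both tested genes lower. Endothelial markers summed to 3.17 to 4.82 CPM over all libraries, and 0 of 4 tested passed in either comparison with Control by edgeR or DESeq2 (0 and 1 at an unadjusted p under 0.05 in edgeR). The part of the cell mix and of proliferation in the members' changes was not tested.

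For 3 members the genes with the nearest pattern over the 12 libraries were sought among 9788 named genes averaging 5 CPM or more, by the root mean square difference of centred log2 CPM. Mthfd2 was nearest to Serpinh1 (0.11), Cyb5r1 (0.12) and Mxra7 (0.12), with Psph at rank 133, Aldh1l2 at 251 and Aldh18a1 at 313. Phgdh was nearest to Ndufv2 (0.044), Hnrnpf and Anxa2 (both 0.047), with Psat1 at rank 325. Shmt1 was nearest to Det1 (0.091), Id2 (0.096) and Fbxl4 (0.097). These distances describe 12 libraries that share the division into Control and plasmid groups.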

How the data were processed

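The deposited files hold whole-number read counts per Ensembl mouse gene ID for each library; the tables carry no header line. Poly(A) RNA was selected on beads and sequenced as 150 bp pairs, per the labels' protocols. The submitters' processing notes name HISAT2 2.2.1, HTSeq 2.0.2 and build GRCm39, without roles, annotation or strand setting. IDs without a symbol held 0.377% to 0.821% of a library's counts. Libraries of a group differed from each other by 2.56 to 8.92 times the sampling noise, and those of different groups by at least 2.61 times. This does not show whether they came from separate cultures.

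All 12 libraries were fitted together with a mean per group (edgeR 4.0.16 under R 4.3.3; TMM factors, filterByExpr by group), leaving 9 residual degrees of freedom. Tests were 2-sided, with Benjamini-Hochberg adjustment over 14253 genes and calls under 0.05. The SE is the log2 fold change divided by the square root of F. The fit was tested on simulated data. Ratios used a prior of 0.5 counts and exact permutation. Intervals cover the spread between libraries.

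Lengths, overlaps and copies came from GENCODE M21 (BLAST 2.17.0, at least 95% identity over 50 bases), promoters from RefSeq. Symbols not in the name table were matched by RefSeq synonyms. Named genes were the 10 members, 11 set genes and, per list, the 2 called genes of largest change with a mean of at least 5 CPM. Those of the marker lists are given as sums and counts, and some named by the rule are not reported here. Members, lists and rules were chosen with earlier results of these data known. Alternatives were RLE and upper-quartile scaling, 2 other filters, a robust prior, a loess trend on exon length (span 0.5) as offset, the 8 libraries compared, DESeq2 1.42.0, and leaving out each library. The same alternatives for the lists, and the CCAAT search, were added after the data were seen.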

Additional observations from a re-analysis of the deposited data

Results flagged for a closer look

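The 10 members and 3 ratios were screened in each group for a library far from the other 3, by Dixon's ratio of gap to range. Of 39 groups of 4 libraries, 3 held such a value, where chance gives about 1.95. Aldh1l2 was at 123 CPM in Control replicate 1, against 114 in the other 3. The log2 ratio of Mthfd1l to Mthfd1 was 1.43 in Control replicate 3, against 1.67 to 1.68, and 2.504 in WT replicate 1, against 2.13 to 2.19. SIRT5F101L replicate 1, which stands apart over all genes, was not among them.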

How the results depend on the processing

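Over 20 alternatives, 7 to 8 members were called in WT and 7 to 9 in SIRT5F101L against Control. Between the plasmid groups the count was 0 except without SIRT5F101L replicate 1, where it was 3 (0 to 3 over the single libraries left out). Mthfd2, Aldh1l2, Psph, Aldh18a1, Mthfd1l, Mthfd1 and Shmt2 kept their direction and call against Control in all 20. Phgdh in SIRT5F101L against Control turned from -0.11 to 0.013 with the exon length trend as an offset. Leaving out single libraries turned 4 uncalled differences between the plasmid groups, with ranges of -0.13 to 0.031 for Psph, -0.017 to 0.098 for Shmt1, -0.042 to 0.063 for Aldh1l2 and -0.034 to 0.0070 for Aldh18a1. It also turned the Shmt2 to Shmt1 ratio in WT against Control (-0.050 without Control replicate 4 to 0.14). The cause was not tested. Counts for the lists, chosen after seeing the data, moved over 1.5-fold between the plasmid groups mainly without SIRT5F101L replicate 1, and against Control for the glycine, osteoblast and muscle lists. No paired analysis was possible because the replicate numbers were given in accession order and pair nothing. Shmt1, at 7.54 to 12.2 CPM, had the widest intervals of the members.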
